A study of Amia calva with 36 samples.

Results

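The 71 genes described here, out of 21948 measured, had a higher mean level in dorsal foregut endoderm than in the other foregut regions sampled. This holds among the regions of bowfin (Amia calva) embryos at stage 27 and not across stages. They were chosen by the measured values of the 12 stage 27 libraries. A gene was taken if it had a spotted gar identifier, if at least 1 of its reads was counted in each of the 3 dorsal endoderm libraries (log2 CPM over 0.88), and if its mean log2 CPM there was at least 2 above the highest of the means of ventral endoderm, dorsal mesoderm and ventral mesoderm. CPM is a gene's read count scaled to a common library total. Of the 11428 genes with a gar identifier, 4810 had the reads asked for, and 71 of these (1.48%) met the difference, so the upper limit of 100 genes removed none. The same rule turned to ventral endoderm took 55 of 4918 genes (1.12%), to dorsal mesoderm 95 of 4665 (2.04%) and to ventral mesoderm 102 of 6078 (1.68%).

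The endoderm is the inner germ layer, which forms the lining of the gut and of the organs that bud from it, and the mesoderm around it forms their connective tissue and muscle. Lungs arise as a ventral outgrowth of the foregut. The gas bladder of bowfin, a ray-finned fish that breathes air, arises on the dorsal side. Dorsal foregut endoderm is therefore the layer whose derivatives include the epithelium of the gas bladder. The bowfin and gar identifiers came without gene names, so no function is given for any of the 71 genes. For the same reason the region names could not be checked against marker genes. Levels are compared for each gene across libraries and not between genes per length.

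RNA was sequenced from tissue cut by laser from transverse sections of bowfin embryos, raised without treatment from eggs laid in a lake, and taken at stage 24 (before the gas bladder buds), stage 25 (at budding) and stage 27 (during outgrowth). At each stage there were 3 libraries each of dorsal endoderm, ventral endoderm, dorsal mesoderm and ventral mesoderm, 36 in all. Reads assigned to genes ran between 377516 and 1998280 a library, with a median of 1030874, apart from stage 24 ventral endoderm replicate 3, which held 3040 reads and is left out of all values below unless named. No label says which embryo a library came from, and the 4 regions were cut out of the same sections. P-values below therefore reflect the spread among the libraries alone, which may be technical. Libraries are numbered in blocks by stage, so stage and batch cannot be told apart.

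At stage 27 the genes set dorsal endoderm apart from the mesoderm of both sides and, by less, from ventral endoderm. The median log2 difference over the 71 genes was 2.65 to ventral endoderm, 3.21 to dorsal mesoderm and 3.00 to ventral mesoderm. The region next below dorsal endoderm was ventral endoderm for 35 genes, ventral mesoderm for 23 and dorsal mesoderm for 9, and for 4 genes no read was found in any of the 9 other stage 27 libraries. The log2 difference to that next region had a median of 2.41 and ranged between 2.03 and 4.77. These values chose the genes and carry no test. In bulk tissue of this kind, fewer cells of a type and less RNA per cell cannot be told apart.

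**Figure D1:**
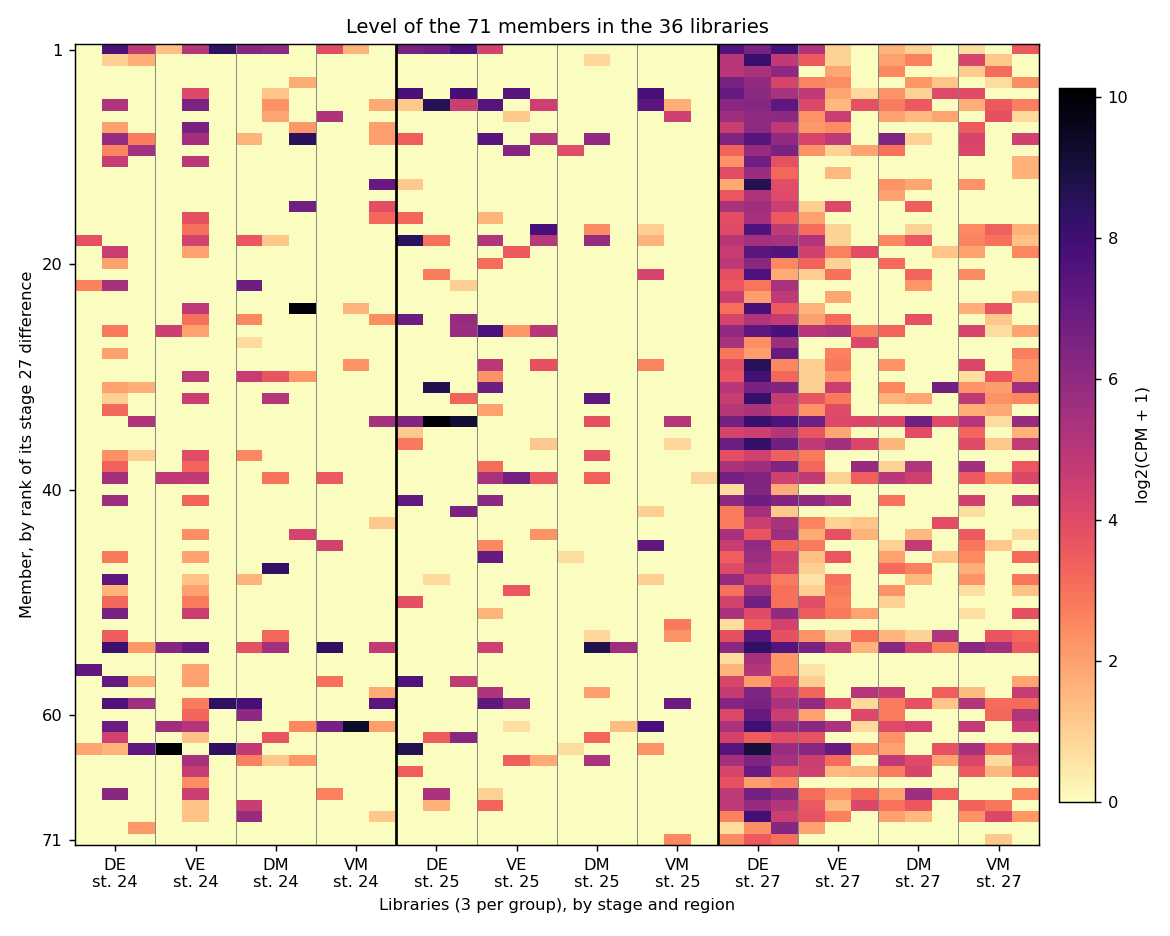
Heat map of log2(CPM + 1), as recovered from the deposited values, for the 71 genes (rows, by their stage 27 difference, 1 being the largest) in all 36 libraries (columns; DE, dorsal endoderm; VE, ventral endoderm; DM, dorsal mesoderm; VM, ventral mesoderm; 3 libraries a group, the column of stage 24 VE on the right being the library of 3040 reads). The 3 stage 27 DE columns are filled for all 71 genes because the rule asked for it, while most cells of stages 24 and 25 are at 0.

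AMCG00003970 (gar ENSLOCG00000016561) had the largest difference of the 71, 4.77 on the log2 scale to ventral endoderm. Its CPM in stage 27 dorsal endoderm was 178, 90.9 and 226, against 35.5, 0.886 and 0 in ventral endoderm, 1.96, 0.883 and 0 in dorsal mesoderm and 0.569, 0 and 10.6 in ventral mesoderm. All 3 dorsal endoderm libraries stood above each of the 9 others.

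AMCG00013162 (ENSLOCG00000017753) was the most even among the dorsal endoderm libraries, at 49.4, 62.1 and 66.4 CPM, a ratio of highest to lowest of 1.34. Ventral endoderm gave 4.00, 22.1 and 0 CPM, dorsal mesoderm 2.94, 1.77 and 2.77 CPM, and ventral mesoderm 0, 12.8 and 0.705 CPM. The groups did not overlap. AMCG00000970 (ENSLOCG00000008406) had 30.2, 38.5 and 64.0 CPM in dorsal endoderm, against 0, 2.66 and 0 in ventral endoderm, 4.91, 0 and 0 in dorsal mesoderm and 1.14, 7.65 and 0 in ventral mesoderm. AMCG00006868 (ENSLOCG00000016695) had 72.6, 73.8 and 151 CPM in dorsal endoderm, and its highest value in another region was 16.0 CPM, in ventral endoderm. For both genes, too, the lowest dorsal endoderm library was above all 9 others.

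In AMCG00008689 (ENSLOCG00000004440) the dorsal endoderm libraries held 95.0, 61.0 and 17.8 CPM, and no other stage 27 library held more than 5.00 CPM. AMCG00001947 (ENSLOCG00000016207) had 131, 66.3 and 40.3 CPM in dorsal endoderm, against 28.0, 2.66 and 0.691 CPM in ventral endoderm. AMCG00006799 (ENSLOCG00000016770) had 22.5, 66.3 and 28.4 CPM in dorsal endoderm, no read in dorsal mesoderm, and 3.50, 4.43 and 0 CPM in ventral endoderm. These 3 genes were lower in the other regions in every library, although the level within dorsal endoderm varied several-fold.

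Other genes overlapped between regions. AMCG00006467 (ENSLOCG00000015875) had 81.5, 168 and 61.6 CPM in dorsal endoderm, while dorsal mesoderm replicate 1 held 86.3 CPM and the other 2 dorsal mesoderm libraries 0.883 and 0 CPM. AMCG00002570 (ENSLOCG00000008834) had 100.2, 281 and 197 CPM in dorsal endoderm, against 108, 15.9 and 16.6 in ventral endoderm, 16.7, 107 and 15.2 in dorsal mesoderm and 32.4, 0.638 and 55.0 in ventral mesoderm. In each of ventral endoderm and dorsal mesoderm 1 library thus reached the lowest dorsal endoderm library.

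The lowest of the 3 dorsal endoderm libraries was above the highest of the 3 ventral endoderm libraries for 49 of the 71 genes, where 7.78% of the 4810 genes with reads in dorsal endoderm had this order. It was above all dorsal mesoderm libraries for 58 genes, where 17.9% of the 4810 did, and above all 9 libraries of the other regions for 37 genes, where 2.04% did. As the rule used these libraries, nothing is read from those counts. At stage 27 no read was found for 10 of the genes in any ventral endoderm library, for 21 in dorsal mesoderm and for 16 in ventral mesoderm. A count of 0 over the 3 libraries allows up to 0.656 CPM in ventral endoderm, 1.04 CPM in dorsal mesoderm and 0.632 CPM in ventral mesoderm (3 counts over all reads of that group). Such limits cover counting error only, because the cDNA was amplified and reads of 1 molecule can repeat.

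**Figure D2:**
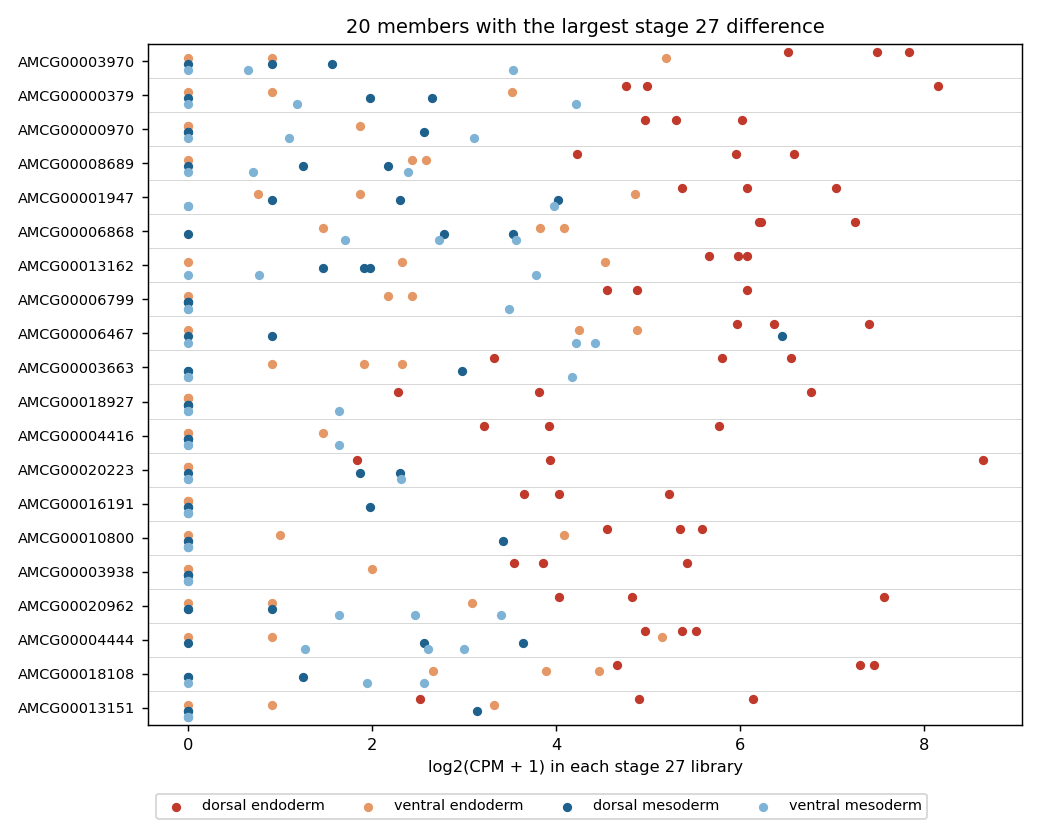
Stage 27 values of the 20 genes with the largest difference, as log2(CPM + 1) (horizontal axis), 1 point a library and 3 libraries a region, coloured by region. Dorsal endoderm points lie to the right in most rows, without overlap for AMCG00003970 and with 1 dorsal mesoderm library among them for AMCG00006467.

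The genes varied strongly among the 3 dorsal endoderm libraries, and replicate 2 carried much of their signal. The highest CPM was in replicate 2 for 46 genes, in replicate 3 for 18 and in replicate 1 for 7. A single library held more than 80% of the summed CPM of 17 genes, which was replicate 2 for 15 of them and replicate 3 for the other 2. The ratio of highest to lowest library had a median of 5.34 over the 71 genes, was below 3 for 23 genes and above 10 for 22. Replicate 2 also had the fewest genes with a read, 8544, against 13160 in replicate 1 and 10661 in replicate 3. The spread among these libraries was not counted for the other genes with reads in dorsal endoderm. It is therefore not read as particular to the 71. How many genes met the rule without replicate 2 is given below.

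The widest spread belonged to AMCG00020223 (ENSLOCG00000001915), which had 2.57, 396 and 14.2 CPM in dorsal endoderm, a ratio of 154. It had 3.92, 2.65 and 0 CPM in dorsal mesoderm and 3.98, 0 and 0 CPM in ventral mesoderm, so 1 dorsal endoderm library lay below libraries of both. AMCG00001398 (ENSLOCG00000017954) had 0.642, 78.1 and 2.37 CPM, which were 1, 73 and 2 reads, and no read in any other library of the series that held over 3040 reads. Its presence in 2 of the 3 libraries thus rests on 3 reads. In all, 11 of the 71 genes had 3 or fewer reads in at least 1 dorsal endoderm library, and 41 had 10 or more in each.

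AMCG00000379 (ENSLOCG00000011504), second by difference at 3.73, shows how 1 library can weigh on a mean: replicate 2 held 284 CPM, or 83.3% of the sum, beside 30.8 CPM in replicate 1 and 26.1 CPM in replicate 3. Ventral mesoderm had 17.6, 1.28 and 0 CPM, ventral endoderm 10.5, 0.886 and 0 CPM, and dorsal mesoderm 2.94, 5.30 and 0 CPM. The lowest dorsal endoderm library was still above all 9 others.

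**Figure D3:**
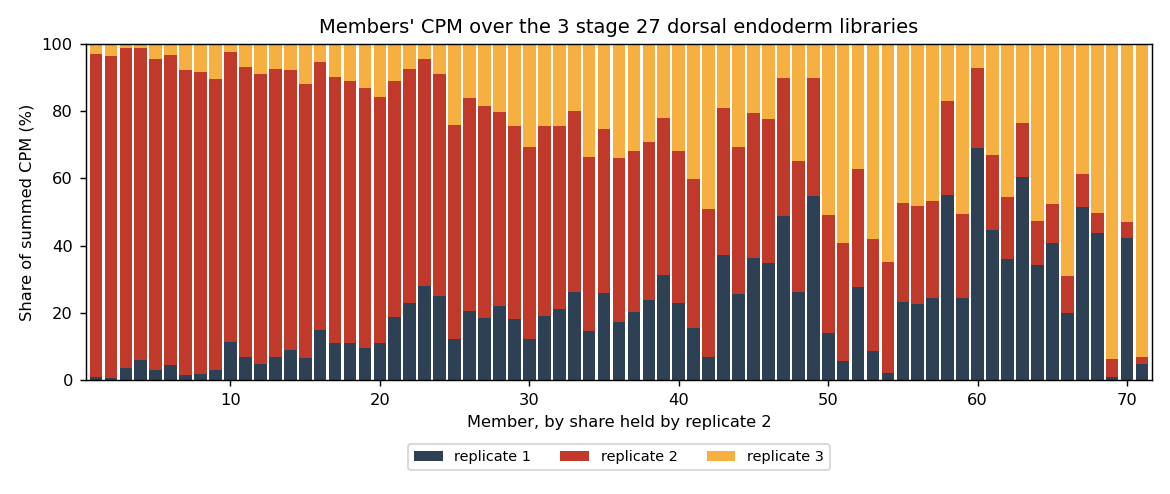
Share of each gene's summed stage 27 dorsal endoderm CPM that each of the 3 libraries held (vertical axis, %; 1 bar a gene for the 71 genes, ordered by the share of replicate 2). Replicate 2 held over 80% for 15 genes, at the left, and replicate 3 for 2 genes.

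The membership depends on single libraries. With the rule applied without dorsal endoderm replicate 2, 111 genes passed and 38 of the 71 were among them. Without replicate 1, 138 passed, with 66 of the 71, and without replicate 3, 138 passed, with 63 of the 71. With a dorsal endoderm library left out, the rule also asked for reads in the remaining dorsal endoderm libraries only. The counts that passed therefore mix a looser demand on reads with the change in the means. Leaving out ventral endoderm replicate 3, in which 23 of the 71 genes had a read, against 56 and 48 in the other 2 ventral endoderm libraries, left 51 of the 71. In all, 28 genes passed whichever dorsal endoderm library was left out, and 19 passed whichever of the 12 stage 27 libraries was left out. AMCG00003970, AMCG00000379, AMCG00000970, AMCG00008689, AMCG00001947, AMCG00006868 and AMCG00013162, with the 7 largest differences, are among the 19. AMCG00002570, AMCG00006467 and AMCG00020223 are not. At the limit of the rule, AMCG00018137, AMCG00000411 and AMCG00014148 were just inside with differences of 2.05, 2.04 and 2.03, and AMCG00021287, AMCG00019163 and AMCG00005059 were just outside with 2.00, 2.00 and 1.99.

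The summed share of reads was compared across regions in the same libraries. The 71 genes took 0.434 ± 0.267% of the reads of stage 27 dorsal endoderm libraries, against 0.0595 ± 0.0349% in ventral endoderm, 0.0358 ± 0.0107% in dorsal mesoderm and 0.0401 ± 0.0181% in ventral mesoderm (SD, n = 3 each). Per library, dorsal endoderm held between 0.243% and 0.740%, the highest being replicate 2, and no other stage 27 library held more than 0.0947%. These libraries chose the genes, so nothing is read from the higher share in dorsal endoderm.

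The stage 24 and 25 libraries were not used to choose the genes. In them most of the 71 were undetected in most libraries. A gene had a read in a median of 3 of the 23 libraries and at most 12. For 6 genes no read was found in any of the 23, which allows up to 0.126 CPM over their reads, and for 25 genes none was found in any of the 6 dorsal endoderm libraries, which allows up to 0.548 CPM. AMCG00000970, at 30.2 CPM or more in each stage 27 dorsal endoderm library, is one of the 6.

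Detection was compared at 377516 reads a library, the expected share of genes with a read if each library were thinned to that depth. In stage 24 dorsal endoderm 5.63% to 40.3% of the 71 genes were detected, against 24.3% to 70.6% of the 4739 other genes that had reads in all 3 stage 27 dorsal endoderm libraries. Stage 24 ventral endoderm gave 7.86% and 48.6% of the 71, beside 29.1% and 77.7% of the other genes. Stage 24 dorsal mesoderm gave 11.4% to 19.8%, beside 41.1% to 69.0%, and ventral mesoderm 4.79% to 15.7%, beside 27.0% to 55.6%. The regions overlapped at this stage. In stage 25 dorsal endoderm it was 12.3% to 20.1%, against 35.1% to 48.2% of the other genes. In stage 25 ventral endoderm it was 11.8% to 28.1%, beside 37.8% to 57.6%, which overlapped the dorsal libraries. Dorsal mesoderm at stage 25 gave 2.08% to 15.7%, beside 37.6% to 51.3%, and ventral mesoderm 0.450% to 12.0%, beside 26.4% to 47.1%. The other genes were also detected less in most early libraries than at stage 27, where each library detected 74.7% or more of them. Stage 24 ventral endoderm replicate 2, at 77.7%, was above that lowest stage 27 library. The part of this difference between stages in the detection of the 71 was not tested. The other genes were not matched to the 71 for level, and the rule asked for lower means in the other stage 27 regions. What this contributes to the lower early detection of the 71 was not tested.

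**Figure D4:**
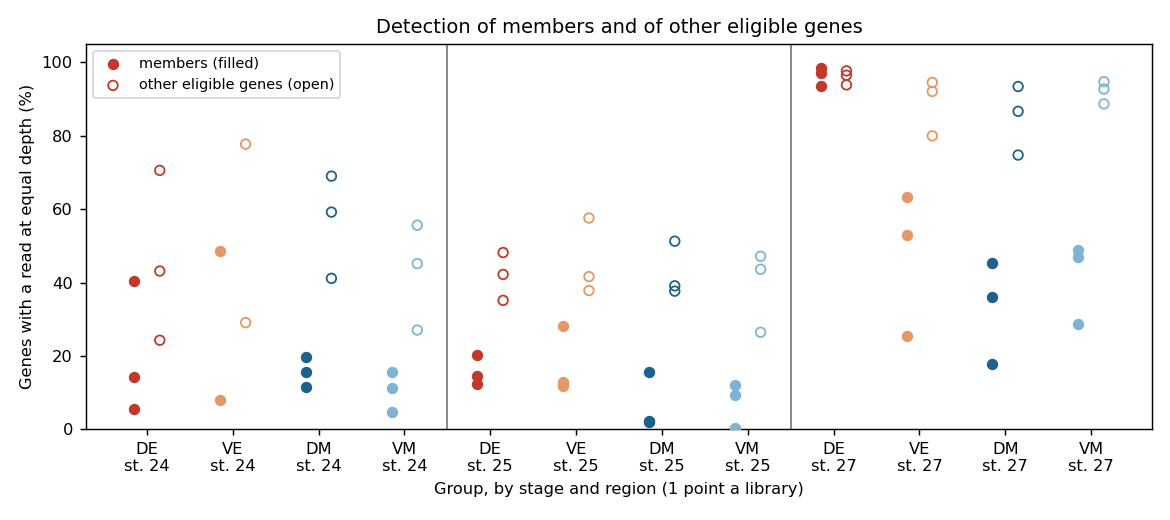
Genes with a read at an equal depth of 377516 reads (vertical axis, %), 1 point a library, by region and stage (DE, VE, DM and VM as above; 35 libraries). Filled points are the 71 genes and open points the 4739 other genes with reads in stage 27 dorsal endoderm. In each library before stage 27 the share of the 71 genes was below that of the other genes, which were not matched to the 71 for level. In stage 25 the DE and VE points overlap. The stage 27 VE, DM and VM libraries had the same order. The rule asked for reads in stage 27 DE and for lower means in the other stage 27 regions. Nothing is therefore read from the stage 27 points.

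By reads, the 71 genes made up 0.0692 ± 0.0778% of stage 24 dorsal endoderm libraries (SD, n = 3), against 0.0817% and 0.129% in the 2 ventral endoderm libraries, 0.0900 ± 0.0554% in dorsal mesoderm and 0.0519 ± 0.0121% in ventral mesoderm (n = 3 each). At stage 25 they made up 0.165 ± 0.0318% in dorsal endoderm, against 0.0681 ± 0.0473% in ventral endoderm, 0.0283 ± 0.0434% in dorsal mesoderm and 0.0327 ± 0.0413% in ventral mesoderm (n = 3 each). Each of the 3 stage 25 dorsal endoderm libraries, between 0.134% and 0.198%, was above the highest of the other regions, 0.123%. AMCG00002570 alone accounts for part of that. Without it, stage 25 dorsal endoderm held 0.0765% to 0.155%, which overlaps the 0.0370% to 0.123% of ventral endoderm.

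The region with the highest mean CPM at stage 24 was dorsal endoderm for 19 of the 71 genes, ventral endoderm for 20, dorsal mesoderm for 11 and ventral mesoderm for 9, and 12 had no read. Among the other 4739 genes these shares were 23.6%, 22.3%, 29.5% and 21.8% in the same order, with 2.83% unread. At stage 25 it was dorsal endoderm for 20 of the 71, ventral endoderm for 18, dorsal mesoderm for 5 and ventral mesoderm for 8, with 20 unread. The other genes had 24.1%, 25.4%, 24.0% and 21.9%, with 4.58% unread. Dorsal endoderm was thus the highest region for 26.8% of the 71 genes at stage 24 and 28.2% at stage 25, and ventral endoderm for 28.2% and 25.4% at these stages. Unread genes are counted in all these shares. They made up 16.9% of the 71 at stage 24 and 28.2% at stage 25, which lowers the shares of the 71 by more than those of the other genes. The stage 24 dorsal endoderm libraries held a read of 4, 32 and 12 of the 71 genes, and the ventral endoderm libraries of 6 and 38. In both regions replicate 2 thus detected the most, and its weight in the stage 24 counts was not tested.

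AMCG00003970 was detected in the most early libraries, 12. At stage 24 it had 0, 200.5 and 26.3 CPM in dorsal endoderm, 1.54 and 32.7 in ventral endoderm, 73.6, 67.0 and 0 in dorsal mesoderm and 14.3, 1.95 and 0 CPM in ventral mesoderm. At stage 25 it had 95.5, 110.4 and 207 CPM in dorsal endoderm, against 19.2, 0 and 0 CPM in ventral endoderm and no read in the 6 mesoderm libraries. The regions overlapped at stage 24, and at stage 25 the 3 dorsal endoderm libraries stood above all others, as they did at stage 27.

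AMCG00002570 had little signal at stage 24, with 0, 0 and 35.4 CPM in dorsal endoderm, 42.5 CPM in 1 ventral mesoderm library and no read in the other 7 libraries of the stage with over 3040 reads. At stage 25 it had 78.6, 1009.8 and 578 CPM in dorsal endoderm, no read in ventral endoderm, 0, 13.0 and 0 CPM in dorsal mesoderm and 0, 33.2 and 0 CPM in ventral mesoderm. A count of 0 in stage 25 ventral endoderm allows up to 0.849 CPM over the 3 libraries. The dorsal endoderm libraries were above the other 9 at stage 25, which they were not at stage 27.

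AMCG00006868 had a read in each stage 25 dorsal endoderm library, at 1.21, 376 and 23.0 CPM, of which the first was 1 read. Ventral endoderm had 177, 0 and 21.5 CPM, dorsal mesoderm none, and ventral mesoderm 163, 2.32 and 0 CPM, so it did not set dorsal endoderm apart at that stage. AMCG00019073 (ENSLOCG00000010245), the gene with the highest mean CPM of the 71 in stage 27 dorsal endoderm, 242 ± 236 CPM (SD, n = 3), was the only one with a read in each stage 24 dorsal endoderm library, at 2.65, 2.02 and 148 CPM, and it had 1122 CPM in 1 ventral endoderm library of that stage. AMCG00015803 (ENSLOCG00000001362) had the opposite order at stage 25, with no read in dorsal endoderm, against 40.3, 101 and 11.4 CPM in ventral endoderm.

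**Figure D5:**
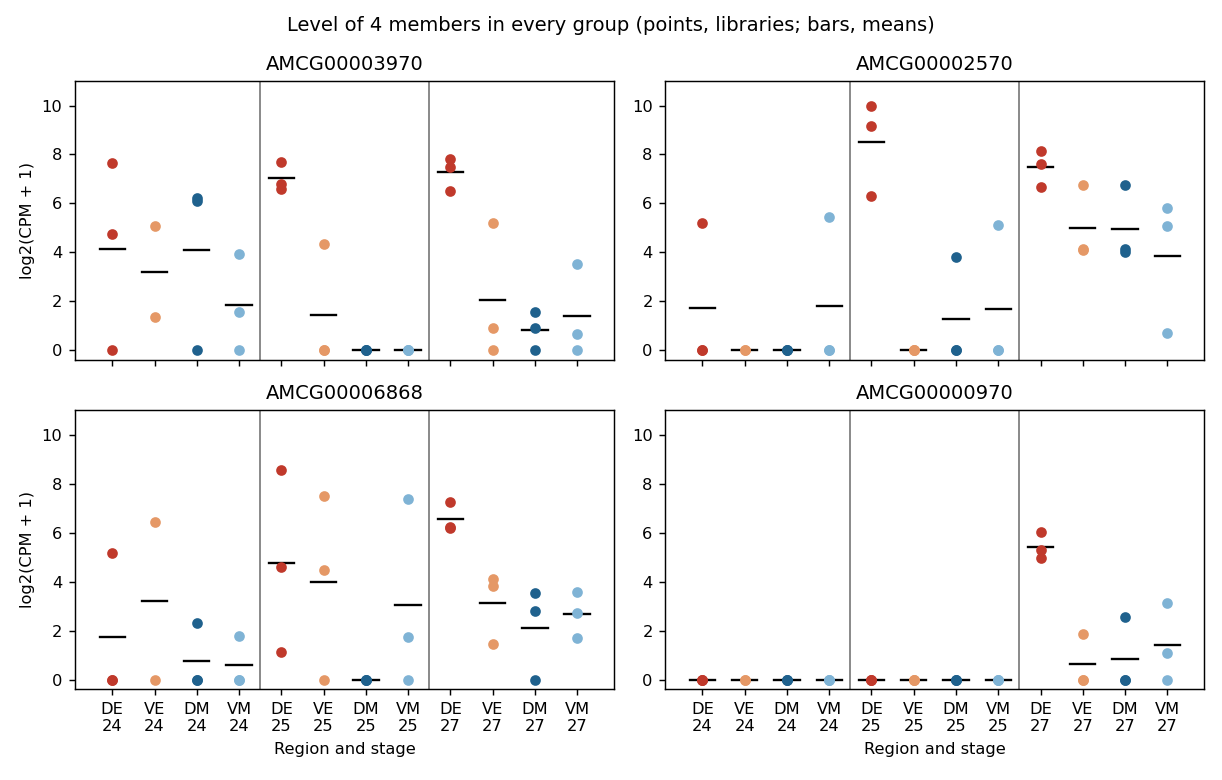
log2(CPM + 1) of 4 of the genes in each library (points) with the group mean (bars), by region and stage, without the library of 3040 reads. AMCG00003970 and AMCG00002570 lie highest in dorsal endoderm (DE) at stage 25 without overlap, AMCG00006868 overlaps between regions there, and AMCG00000970 has no read before stage 27.

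To test whether the genes were already higher in dorsal endoderm before and at budding, the 23 early libraries were fitted with limma, which tests each gene against a spread shared among genes of like level. The fit covered the 10007 genes with a CPM over 1 in at least 3 of the libraries, which include 43 of the 71, with Benjamini-Hochberg adjustment over all 10007. None of the 43 passed an adjusted p of 0.05 in any of the 7 comparisons. Missing the threshold does not show that the levels were alike. On simulated data, the fit for dorsal against ventral endoderm over both stages called only a small part of the genes that had been made to differ strongly. The simulated spread was estimated from these libraries and held within set limits. The genes made to differ were drawn only from those with a higher early level than the fit asked for. Genes of low early level were thus not covered by the simulation. For dorsal against ventral endoderm over both stages 0 of 43 passed, where 0.00999% of all genes did (1 gene, AMCG00006382, which is not among the 71 and was lower in dorsal endoderm by a log2 difference of -0.44). For dorsal endoderm against dorsal mesoderm over both stages, for stage 25 against 24 within dorsal endoderm and for the comparisons within each stage the counts were 0 of 43, where 0% of all genes passed.

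Before adjustment, the comparison of dorsal with ventral endoderm over both stages gave p under 0.05 for 4 of the 43 genes, where 3.64% of all genes had it, and the comparison of dorsal endoderm with dorsal mesoderm gave 2 of 43, where 7.14% had it. Stage 25 against 24 in dorsal endoderm gave 4 of 43, where 4.45% had it. Dorsal against ventral endoderm gave 1 of 43 at stage 24, where 3.36% had it, and 9 of 43 at stage 25, where 4.64% had it, of which 5 were higher in dorsal endoderm and 4 lower. Dorsal endoderm against dorsal mesoderm gave 3 of 43 at stage 24, where 5.68% had it, all lower, and 6 of 43 at stage 25, where 6.52% had it, all higher. The 43 genes reached the fit only through reads in some early library, and dorsal endoderm libraries counted for this too. AMCG00009601 and AMCG00000097, among the 6 higher than dorsal mesoderm at stage 25, met the filter only with their dorsal endoderm libraries. AMCG00000097 was also among the 5 higher than ventral endoderm at stage 25. It was counted with p under 0.05 by limma in both comparisons over both stages as well. These counts therefore describe the 43 and not the 71, and no direction is read from them.

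In the sign of the difference over all 71 genes with no filter on low values, 25 were higher and 33 lower in dorsal than in ventral endoderm over both stages, with 13 equal at no reads, where 24.9% of all genes were higher and 30.3% lower. Against dorsal mesoderm 38 were higher and 21 lower, with 12 equal, where 23.9% of all genes were higher and 33.1% lower. Within stage 25, 23 were higher, 23 lower and 25 equal against ventral endoderm, where 20.6% of all genes were higher and 24.0% lower. Against dorsal mesoderm at that stage 24 were higher, 13 lower and 34 equal, where 20.8% of all genes were higher and 23.7% lower. Within dorsal endoderm, 21 genes were higher, 25 lower and 25 equal at stage 25 against stage 24, where 20.7% of all genes were higher and 25.6% lower. The rest of all genes in each comparison were equal. Equal genes made up a different share of all genes than of the 71, so counts and percentages are not on a like base. The counts of these signs depend on the scaling, and the more frequent sign turned for some comparisons and not for others. Of the 43 genes tested, 15 were higher and 28 lower in dorsal than in ventral endoderm over both stages as deposited, but 25 were higher and 18 lower after median centring, which also turned the median over all genes tested, at 0.37 with centring and -0.13 without. Against dorsal mesoderm 25 were higher, 16 lower and 2 equal as deposited, and 33 higher and 10 lower after centring. The medians over all genes were 0.07 with centring and -0.25 without. At stage 25 against 24, 15 were higher, 18 lower and 10 equal as deposited, and 32 higher, 10 lower and 1 equal after centring. Centring shifts all genes of a library alike. Genes equal at no reads thus took a sign from the shift alone. After quantile normalization 21 were higher and 22 lower in dorsal than in ventral endoderm over both stages, where 51.8% of all genes tested were higher. Against dorsal mesoderm it gave 29 higher and 14 lower, where 48.5% of all genes were higher. More of the 43 were thus higher than lower there under each scaling. For stage 25 against 24 it gave 16 higher and 27 lower, where 44.3% of all genes were higher. Because the median over all genes moved with the scaling in each of these comparisons, no direction is read from any of these counts.

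AMCG00002570 had the largest fitted log2 difference of the 43 genes over the 7 comparisons. At stage 25 its log2 difference to ventral endoderm was 7.62 (SE 2.15, adjusted p = 0.900 by limma) and to dorsal mesoderm 6.62 (SE 2.15, adjusted p = 0.512 by limma). All 3 dorsal endoderm libraries were above all libraries of both, although the difference missed the threshold. Fitted differences to a group at 0 depend on the prior count and are no bound on the fold. Fitted with limma voom on the recovered reads, which weights each value by its expected precision, the same differences were 9.68 (SE 1.28, adjusted p = 1.66e-05) and 8.31 (SE 1.79, adjusted p = 0.00628). The voom fit called it over both stages too, at 5.71 to ventral endoderm (adjusted p = 0.0123) and 5.24 to dorsal mesoderm (adjusted p = 0.0230). The voom fit starts from the reads with another prior count and also weights them, so both the differences and their errors changed, and which of these steps gave the call was not tested. The direction was the same in both fits.

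AMCG00003970 differed at stage 25 by 4.99 from ventral endoderm (SE 2.29, adjusted p = 1 by limma) and by 6.17 from dorsal mesoderm (SE 2.29, adjusted p = 0.600 by limma). The voom fit gave 8.47 to dorsal mesoderm (adjusted p = 0.000381) and did not call the difference to ventral endoderm. With voom, 1 of the 43 genes was called for dorsal against ventral endoderm over both stages, where 0.02% of all genes were, and 1 against dorsal mesoderm, where 0.729% were. At stage 25 it called 1 of 43 against ventral endoderm, where 0.46% of all genes were called, and 2 of 43 against dorsal mesoderm, where 1.53% were. It called none of the 43 for stage 25 against 24 (0.26% of all genes), for dorsal against ventral endoderm at stage 24 (0.02%) or for dorsal endoderm against dorsal mesoderm at stage 24 (0.21%).

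Without a model, the 3 dorsal endoderm libraries of stage 25 were above all ventral endoderm libraries for 2 of the 43 genes, AMCG00003970 and AMCG00002570, where 1.76% of the 10007 genes had this order. They were above all dorsal mesoderm libraries for 3, AMCG00006868 being the other, where 1.97% of all genes were, and above all 9 other libraries for 2, where 0.31% were. At stage 24 none of the 43 genes had dorsal endoderm above ventral endoderm (1.44% of all genes), above dorsal mesoderm (1.12%) or above all 3 regions (0.28%) without overlap.

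Whether the difference to ventral endoderm itself changed between stages 24 and 25 was tested in the same limma fit, and likewise that to dorsal mesoderm. Neither change passed an adjusted p of 0.05 for any of the 43 genes or of all genes. Before adjustment p was under 0.05 for 3 of 43 genes and 338 of all 10007 for ventral endoderm, and for 1 of 43 genes and 396 of all 10007 for dorsal mesoderm.

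Across stages within dorsal endoderm, all 3 stage 27 libraries were above all 6 early ones for 45 of the 71 genes, where 24.3% of the 4810 genes with reads in stage 27 dorsal endoderm had this order. Detection of other genes was higher at stage 27 as well, as given above. In 15 genes 1 or more early dorsal endoderm libraries were above the highest of stage 27, AMCG00002570 among them, and in 9 genes the mean CPM was higher at stage 25 than at stage 27. Since the stage 27 dorsal endoderm levels chose the genes, nothing is read from these counts.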

How the data were processed

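Laser-captured foregut RNA of 36 bowfin libraries was amplified and sequenced, per the labels' protocols. Per the submitters' processing notes, Trimmomatic 0.38, STAR 2.6, edgeR (no version given) and R 3.6.0 were used; the genome build is not given in the sources used here. The deposited values are log2 CPM with a prior count, with a smallest value of 0.875. Whole reads and library totals were recovered from their steps: 100% of 205532 values under 200 reads were whole within 0.02, and rebuilt values differed from the deposited log2 values by at most 5.0e-09. CPM in the text is recovered reads scaled to the library total. No 2 libraries were identical.

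Stages 24 and 25 (23 libraries, without the one of 3040 reads) were fitted with limma 3.58.1 (trend) in R 4.3.3 on the deposited log2 values, with a mean for each group; the stage 27 libraries that chose the genes were left out. The fit was tested on simulated data for dorsal against ventral endoderm over both stages, where its calls were correct but few. The members and lists were chosen with earlier results of these data known. Genes named are those with the largest stage 27 difference, the highest stage 27 level, the smallest p and the most early reads, and those at the limit of the rule; only the few the results turn on are given values. AMCG00001398, AMCG00020961 and AMCG00006382 fall outside this rule and were chosen after their values were seen. AMCG00020962, named with AMCG00020961 for their consecutive identifiers, falls under the rule by its p. The planned marker lists could not be matched, because no gene names were paired with the identifiers. The test of a change in a difference between stages, the counts by highest region and the comparison of stages within dorsal endoderm were added after the data were seen. Alternatives covered filters, pseudocounts, scaling, libraries, voom, weights and a replicate block.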

Additional observations from a re-analysis of the deposited data

How the results depend on the processing

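No member passed the threshold under any alternative but voom and 1 left-out library. With limma voom 1 member was called for dorsal endoderm against ventral endoderm and 1 against dorsal mesoderm over both stages, and 1 and 2 in the same comparisons at stage 25. Leaving out 1 library gave 0 to 1 members for dorsal against ventral endoderm at stage 24: without ventral endoderm replicate 1, AMCG00006799 was called, at -5.17 on the log2 scale (adjusted p = 0.0317 by limma). That leaves 1 ventral endoderm library, assumed to vary like the other groups. Refits were also followed for 17 differences of 9 members, mostly those with the smallest p and not including AMCG00006799. Of these 577 refits 572 kept direction and side of the threshold, 5 voom refits newly passed and 0 reversed.

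Genes called among all genes moved as follows. For dorsal against ventral endoderm over both stages (1 gene) there were 9 with no filter, 2 with voom, 0 with CPM plus 5, median centring, quantile normalization, all 36 libraries or quality weights, and 0 to 4 with a library left out. Against dorsal mesoderm (0 genes) there were 1 with no filter, 4 with all 36 libraries and 73 with voom. For stage 25 against 24 there were 26 with voom and 0 to 1 with a library left out. For dorsal against ventral endoderm at stage 24 there were 13 with no filter, 1 with CPM over 4, 1 with CPM plus 1, 2 with voom, and 0 to 43 with a library left out; the 43 came without ventral endoderm replicate 1 and 12 without replicate 2. At stage 25 there were 1 with CPM over 4, 46 with voom and 0 to 1 with a library left out. Against dorsal mesoderm there were at stage 24 2 with no filter, 1 with all 36 libraries, 21 with voom and 0 to 6 with a library left out, and at stage 25 2 with all 36 libraries, 153 with voom and 0 to 7 with a library left out. The cause was not tested. Median centring moved the median log2 difference over all genes most for stage 25 against 24, to 0.90, where it was 0, and turned its sign for both comparisons over both stages, as given beside the sign counts. Centring also turned the sign of this median for dorsal endoderm at stage 24. It went from -0.40 to 0.07 against dorsal mesoderm and from -0.0037 to 0.66 against ventral endoderm.

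A replicate block by stage and number called 0 members. It called as many genes as the fit without it, except for dorsal against ventral endoderm at stage 24, where it called 1 gene and the fit without it 0. It was not run for stage 25 against 24, whose libraries share no block. Group means were subtracted from the log2 values, and the deviations left were correlated between same-numbered libraries. Dorsal endoderm was paired with ventral endoderm or dorsal mesoderm of its stage. These correlations of deviations, not of the levels themselves, were -0.0183 to 0.12 over 11 pairs, with 2 over 0.1. As 9 were not over 0.1 and no label ties the numbers to embryos, same-numbered libraries were not taken as pairs. Even so, 8 of the 11 correlated best with their own number, a hint from the data and not the design. The number of genes the rule takes, 71, was 384 at a difference of at least 1, 16 at 3, 103 with CPM plus 1 as the level, 79 with equal library means (chosen after seeing the data), and 65 to 138 with a stage 27 library left out. Depth limits the early stages: an unread gene may be present at up to 2.22 CPM in the shallowest group, stage 24 ventral endoderm.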

Other observations

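The rule left out genes without a gar identifier. Of 2674 such genes with a read in each stage 27 dorsal endoderm library, 30 (1.12%) had the same difference, against 1.48% of those with an identifier. Only 1 pair among the 71 genes has consecutive bowfin identifiers, AMCG00020961 and AMCG00020962. The library of 3040 reads held 1 read each of 3 of the 71 genes.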
